A study of Mus musculus with 15 samples.

Results

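Divergent promoter pairs are promoters of neighbouring genes that lie head to head, one transcribed to the left and the other to the right. A pair was taken wherever a minus-strand transcription start site (TSS) lay at most 1000 bp below a plus-strand TSS on the same chromosome and both promoters had a coverage score above 100, the score being the number of ChIP-MNase fragments near the TSS. This gave 1125 pairs made up of 1063 plus-strand and 1065 minus-strand promoters. They are 2128 of the 13559 high-coverage promoters, out of 25881 annotated promoters in all. Some genes have more than 1 annotated TSS, so the pairs came from 1024 pairs of genes, and 1010 pairs remained when each TSS was used once. Another 121 pairs lay within the distance limit but had a promoter of low coverage. The pair just inside the distance limit was Lnx2/Polr1d at 997 bp and the closest outside was Sgsm2/Tsr1 at 1001 bp. The lowest score inside was 100.5, at Asxl1, and the highest outside was 100, at Map3k11. Throughout, a pair is written with its minus-strand gene first.

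The assay was ChIP-MNase: long pieces of chromatin were pulled down with an antibody and only then digested with micrococcal nuclease, which spares DNA wrapped in nucleosomes, so the surviving fragments give the nucleosome occupancy. Mouse dendritic cells (DCs) that were grown from bone marrow progenitor lines were assayed with an H3K4me1 antibody non-stimulated or treated with LPS (100 ng/ml, 1 h), each as 1 set of values that pools 2 replicates. The same was done for 3T3 cells, an immortalised fibroblast line, non-stimulated or treated with TNF-α (5 ng/ml, 1 h). Another 8 H3K4me1 libraries of 3T3 fibroblasts were single replicates, 2 each of control and BAF-knockdown cells with and without TNF-α. A last group of 3 libraries of TNF-α-stimulated fibroblasts was made with antibodies against RNA pol-II phosphorylated at serine 7 (S7P, 2 replicates) or serine 5 (S5P, 1 set of values). BAF-knockdown cells carry a stable retroviral shRNA that targets Brg1 and Brm together, so both subunits were reduced in the same cells and with a single shRNA. Occupancy data cannot show the level of either mRNA, so the knock-down was not checked here. The sources used here do not say whether control cells carry an empty vector. Pooled sets carry no replicate error, and tests between libraries therefore used the 8 single H3K4me1 libraries.

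In mammalian genomes many housekeeping genes, including genes for DNA repair, mitochondrial proteins and the proteasome, start from such shared stretches. A bidirectional promoter usually lies in a CpG island and lacks a TATA box, and the assembly of a transcription complex on each strand leaves room for only a few regulatory sites between both starts. At an active promoter, a nucleosome depleted region (NDR) covers the DNA just upstream of the TSS and is followed by a well-placed +1 nucleosome. For a divergent pair, the upstream region of each gene is also the upstream region, or even the transcribed part, of its partner.

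The stretches between both TSSs of 7 pairs are shown because they are the DNA that both genes share and that the occupancy values below refer to. They belong to well-known pairs (Psmb9/Tap1, Mcm7/Ap4m1 and Mrps12/Sars2), to pairs with strong expression of both genes in fibroblasts (Hdlbp/Septin2, Mrpl32/Psma2 and Sdhd/Timm8b) and to a histone pair with strong expression in DCs (H2bc13/H2ac13). Each is the plus strand of the mm9 build, taken from the reference genome, 5′ to 3′, without the TSS bases themselves. Capitals mark matches to 6 motifs on either strand: NRF1 (CGCATGCG), ETS (CCGGAAGT), the CCAAT box (CCAAT), the GC box (GGGCGG), the TATA box (TATAAA) and YY1 (AAGATGGCG).
Hdlbp/Septin2 (chr1:95375386-95375570): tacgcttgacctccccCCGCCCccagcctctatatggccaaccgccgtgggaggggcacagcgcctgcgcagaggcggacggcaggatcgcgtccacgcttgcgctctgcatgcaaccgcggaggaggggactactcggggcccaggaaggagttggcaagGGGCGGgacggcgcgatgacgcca
Mrpl32/Psma2 (chr13:14705305-14705509): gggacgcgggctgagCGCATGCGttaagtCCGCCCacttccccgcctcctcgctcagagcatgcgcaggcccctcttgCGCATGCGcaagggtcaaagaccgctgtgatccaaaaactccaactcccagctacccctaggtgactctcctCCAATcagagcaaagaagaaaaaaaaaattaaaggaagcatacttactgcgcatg
H2bc13/H2ac13 (chr13:21808013-21808291): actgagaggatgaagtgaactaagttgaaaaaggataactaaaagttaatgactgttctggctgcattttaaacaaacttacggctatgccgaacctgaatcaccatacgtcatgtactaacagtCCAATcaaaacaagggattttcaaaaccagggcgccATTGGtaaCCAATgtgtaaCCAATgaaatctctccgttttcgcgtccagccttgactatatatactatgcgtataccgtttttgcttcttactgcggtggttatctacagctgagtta
Psmb9/Tap1 (chr17:34324276-34324501): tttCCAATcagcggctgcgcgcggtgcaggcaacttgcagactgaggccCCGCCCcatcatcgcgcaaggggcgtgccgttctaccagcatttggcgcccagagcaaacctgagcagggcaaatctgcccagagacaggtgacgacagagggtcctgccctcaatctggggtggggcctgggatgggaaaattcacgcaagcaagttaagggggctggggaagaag
Mcm7/Ap4m1 (chr5:138613091-138613249): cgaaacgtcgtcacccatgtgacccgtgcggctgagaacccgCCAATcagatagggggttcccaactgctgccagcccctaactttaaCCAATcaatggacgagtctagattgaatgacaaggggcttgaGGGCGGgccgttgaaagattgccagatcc
Mrps12/Sars2 (chr7:29526801-29526987): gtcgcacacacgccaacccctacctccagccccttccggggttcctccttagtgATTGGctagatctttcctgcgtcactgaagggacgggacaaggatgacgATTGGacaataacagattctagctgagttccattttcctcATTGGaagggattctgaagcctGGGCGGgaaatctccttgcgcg
Sdhd/Timm8b (chr9:50411955-50412006): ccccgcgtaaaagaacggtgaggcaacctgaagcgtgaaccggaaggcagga

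G and C made up 70.3% of the stretch of Hdlbp/Septin2, 61.5% of that of Psmb9/Tap1 and 59.6% of that of Sdhd/Timm8b, but 40.1% of that of H2bc13/H2ac13. H2bc13/H2ac13 held 4 CCAAT boxes, the most among the 7, and Mrps12/Sars2 held 3. Mrpl32/Psma2 held 2 NRF1 matches, and none of the 7 stretches held the TATA box sequence TATAAA. Other TATA-like sequences were not searched. Sdhd/Timm8b, whose TSSs are 53 bp apart, held none of the 6 motifs.

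Divergent promoters were rich in CpG islands and were mostly active. A CpG island was called at 1820 divergent promoters (85.5%) and at 50.7% of the 11431 other high-coverage promoters, and both promoters of a pair were CpG islands in 871 pairs (77.4%). Non-coding transcripts started at 13.3% of divergent promoters and at 12.6% of others. In DCs 78.4% of divergent promoters were active, which means that expression exceeded 0.02 of the average promoter, against 58.6% of others. In fibroblasts the shares were 68.5% and 43.7%. Expression was given as FPKM of non-stimulated cells on scales that differ between both cell-types. Its median at divergent promoters was 0.613 FPKM in DCs and 5.11 FPKM in fibroblasts, against 0.180 and 0.733 FPKM at others. An expression of 0 was listed for 10.9% of divergent promoters in DCs and 4.51% in fibroblasts, and for 26.2% and 19.3% of others. Because of this difference, occupancy was compared with other promoters of like expression.

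Promoter motifs were counted on both strands from -250 to 50 bp of each TSS, as shares that describe the sequence and were not tested. The GC box, a binding site of Sp1-like factors, was found at 71.3% of divergent promoters and at 51.8% of all high-coverage promoters. Among CpG island promoters alone, the shares were close, at 76.6% and 74.4%. ETS matches, bound by the ETS family that includes GABP, were found at 14.1% of divergent and 6.57% of all high-coverage promoters, and at 15.6% and 10.5% among CpG islands. YY1 matches were found at 5.17% and 2.39% (5.82% and 4.06% among CpG islands), NRF1 matches at 4.46% and 2.66% (5% and 4.48%), and CCAAT boxes at 40.5% and 37.4% (40.8% and 37.6%). TATA boxes were found at 4.28% of divergent and 9.71% of all high-coverage promoters, and at 3.90% and 5.59% among CpG islands. Windows of partners up to 500 bp apart overlap, so 1 match can count for both. ETS matches were found at 22.6% of promoters in pairs at most 100 bp apart and at 4.78% in pairs over 500 bp apart. The classes between them were close to each other, at 13.2%, 12% and 11.8%. CpG islands fell from 93.4% to 66.9% between the closest and widest class, and these shares were not split by CpG island. CCAAT boxes were least frequent in the closest pairs, at 24.6%, and most frequent in pairs 200 to 300 bp apart, at 53.1%.

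Most pairs were close. The median distance between TSSs was 185 bp, with an upper quartile of 338 bp and a range of 2 to 997 bp. Pairs at most 100 bp apart numbered 281 (25%), those up to 200 bp apart 311 (27.6%), those up to 300 bp apart 191 (17%), those up to 500 bp apart 177 (15.7%) and those up to 1000 bp apart 165 (14.7%). Each of these classes begins just above the limit of the one before it. The shortest were Capza1/St7l at 2 bp, Col4a1/Col4a2 at 4 bp and 2810004N23Rik/Gnpat at 5 bp. Alongside Lnx2/Polr1d, the longest were Ddx25/Pus3 at 997 bp and Ndufaf3/Mir191 at 978 bp. CpG islands made up 93.4% of promoters in the closest pairs and 66.9% in the widest, and active promoters in DCs 81.0% and 69.0%. In fibroblasts active promoters made up 72.9% of the closest and 61.2% of the widest pairs.

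Both genes were active in 64.4% of pairs in DCs and 48.8% in fibroblasts, each by the threshold of its own cell-type. The levels of partners had little relation to each other by rank. In DCs both promoters were active in 724 pairs (64.4%), 1 in 314 (27.9%) and none in 87 (7.73%). In fibroblasts the numbers were 549 (48.8%), 437 (38.8%) and 139 (12.4%). Activity is set against the mean of each cell-type, so the cut-offs are unlike. By expression above 0, both partners were expressed in more pairs in fibroblasts (1038) than in DCs (922). Of single divergent promoters 78.4% were active in DCs and 68.5% in fibroblasts. The share of pairs to expect from unrelated partners was not calculated. Both promoters were active in both cell-types in 480 pairs (42.7%). Spearman's rho of the partners' FPKM was 0.121 in DCs and 0.0769 in fibroblasts, calculated across the 1125 pairs of 1 RNA-seq data set each, and 0.104 and 0.0651 over the 1010 pairs with each TSS once. Pairs are not independent replicates and both values come from the same library, so these are descriptions without a test. Where both partners had expression above 0, their levels differed by a median of 4.67-fold in DCs (quartiles 1.95 and 17.8, 922 pairs) and 5.90-fold in fibroblasts (quartiles 2.23 and 33.4, 1038 pairs). The difference was over 10-fold in 308 pairs (33.4%) in DCs and 417 (40.2%) in fibroblasts. Any value above 0 was counted, including values under 0.001 FPKM, which can make these fold differences very large. With 0 included, at least 1 partner was under 0.001 FPKM in 294 of the 1125 pairs in DCs and 175 in fibroblasts. The fold differences were not recalculated without values under 0.001 FPKM, and none were calculated for unpaired promoters.

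**Figure D1:**
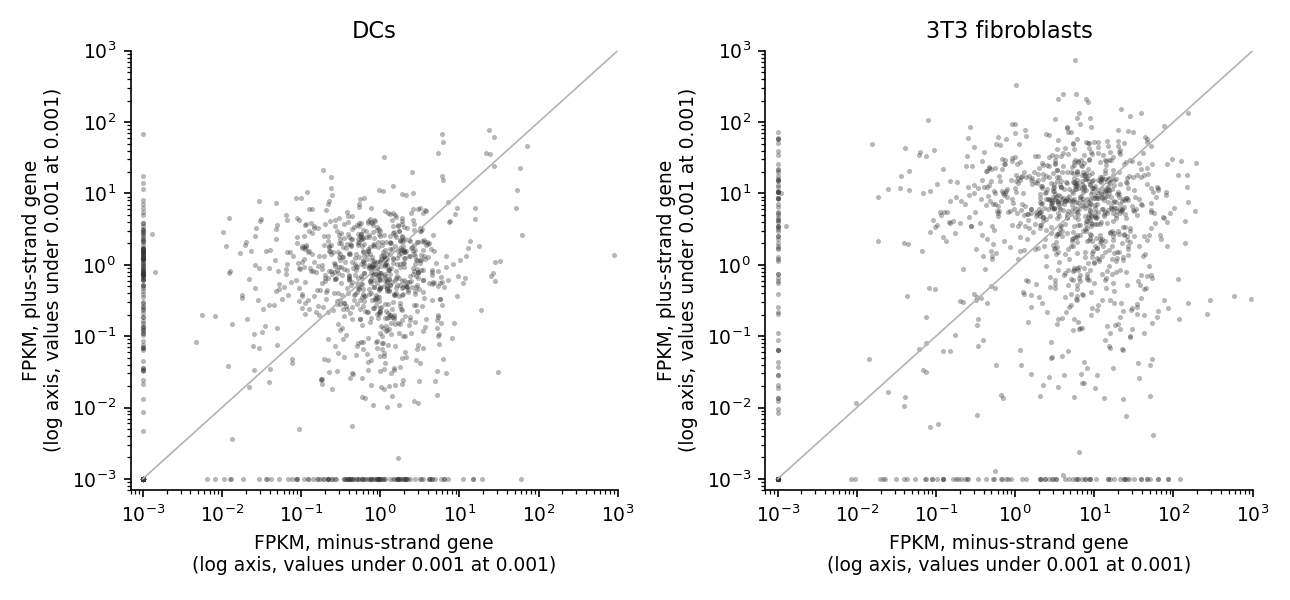
Expression (FPKM, log axes) of the plus-strand gene against the minus-strand gene in each of 1125 divergent pairs, in DCs (left) and fibroblasts (right), with a line of equal expression. Values under 0.001 FPKM, 0 included, are drawn at 0.001, which holds for at least 1 gene in 294 pairs in DCs and 175 in fibroblasts, and the points scatter widely on both sides of the line.

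Pairs with the highest expression of their lower partner differed between the cell-types. In fibroblasts they were Hdlbp/Septin2 (152 and 134 FPKM), Tmed7/Eif1a (76.4 and 89.0), Mrpl32/Psma2 (46.9 and 57.5), Sdhd/Timm8b (46.6 and 53.0) and Ndufa2/Ik (51.5 and 46.3). Hdlbp encodes an RNA-binding protein and Septin2 a cytoskeletal GTPase. Mrpl32 is a subunit of the mitochondrial ribosome and Psma2 of the proteasome, while Sdhd and Ndufa2 are subunits of respiratory complexes and Timm8b helps import proteins into mitochondria. In DCs all 5 were histone pairs: H2ac12/H2bc12 (70.6 and 46.2 FPKM), H2bc13/H2ac13 (27.0 and 62.4), H2bc9/H3c7 (27.2 and 24.5), H2ac15/H2bc15 (24.2 and 36.2) and H2bc7/H2ac7 (23.5 and 76.7). The 12 pairs of an H2A with an H2B gene held 22 promoters, of which 3 are annotated second copies of H2bc23, H2ac23 and H2ac24. Their FPKM in DCs ranged from 0.691 to 76.7 with a median of 26.1, and in fibroblasts from 0 to 2.79 with 13 of the 22 at 0. Messages of these histones mostly lack a poly(A) tail, and whether both public RNA-seq sets selected poly(A) RNA is not given in the sources used here.

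Some strongly expressed genes had a partner TSS with a listed expression of 0. In DCs the highest were Snora64 (68.3 FPKM, partner Snhg9), Mir1938 (60.02, partner Gm7008), Rps2 (17.8, partner Snhg9), Hsp90b1 (14.98, partner Ttc41) and Erp29 (14.8, partner Tmem116). Hsp90b1 and Erp29 are folding proteins of the endoplasmic reticulum, and Rps2 is a ribosomal protein. In fibroblasts they were Ndufa5 (85.8, partner Asb15), 1810009A15Rik (72.1, partner Mir5136), Eloc (64.5, partner D030040B21Rik), Ttc3 (58.2, partner Pigp) and Cct7 (57.4, partner Pradc1). The silent start of Pigp lies 410 bp from Ttc3, and other starts of Pigp, 30 and 190 bp from Ttc3, had 6.01 and 0.761 FPKM (Pigp/Ttc3). Snora64 and Mir1938 are short RNAs, and reads of a host or overlapping transcript cannot be told apart from theirs in these values.

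Nucleosomes were more depleted upstream of divergent promoters than upstream of other promoters of like expression. Depletion was expressed as the NDR ratio, in which mean occupancy between -150 and 0 bp is set over the mean 500 to 1000 bp downstream of the same TSS, so that a lower value means a deeper NDR. The downstream flank was used because the upstream flank can contain the partner's gene. In the 8 single libraries the NDR ratio of divergent promoters was 0.475 at the lowest, 0.599 at the median and 0.7003 at the highest. For other promoters, weighted to the same 6 expression classes (an expression of 0 and 5 quantile classes of the expressed), it was 0.639, 0.705 and 0.755. Divergent promoters were lower in 8 of 8 libraries, although the ranges overlap between libraries, with a difference of -0.26 ± 0.14 on the log2 scale (SD, n = 8). The exact two-sided sign-flip permutation test gave p = 0.00781, the smallest value that 8 libraries allow, and a Benjamini-Hochberg adjusted p of 0.0176 over the 9 library tests made here. The 8 libraries come from 1 cell line and share the same promoters, so p measures only the spread between these libraries. When other promoters were matched on CpG islands as well as expression, the difference was -0.14 on the log2 scale (p = 0.00781 by the same exact test). With medians over promoters in place of means it was -0.66.

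The deeper NDR was also seen in every other data set. NDR ratios were 0.495 against 0.662 in non-stimulated DCs, 0.452 against 0.643 after LPS, 0.474 against 0.624 in pooled non-stimulated fibroblasts and 0.398 against 0.595 in pooled TNF-α-stimulated fibroblasts. Among pol-II libraries they were 0.711 against 0.774 and 0.660 against 0.748 for S7P, and 0.407 against 0.581 for S5P. Divergent promoters were thus lower in 15 of 15 libraries, with differences from -0.58 to -0.11 on the log2 scale. Mean occupancy under 0.75 of the flank extended from -160 to 60 bp of the TSS in non-stimulated DCs and fibroblasts alike, a width of 220 bp. At other promoters of like expression it reached from -130 to 40 bp in DCs and from -140 to 40 bp in fibroblasts.

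**Figure D2:**
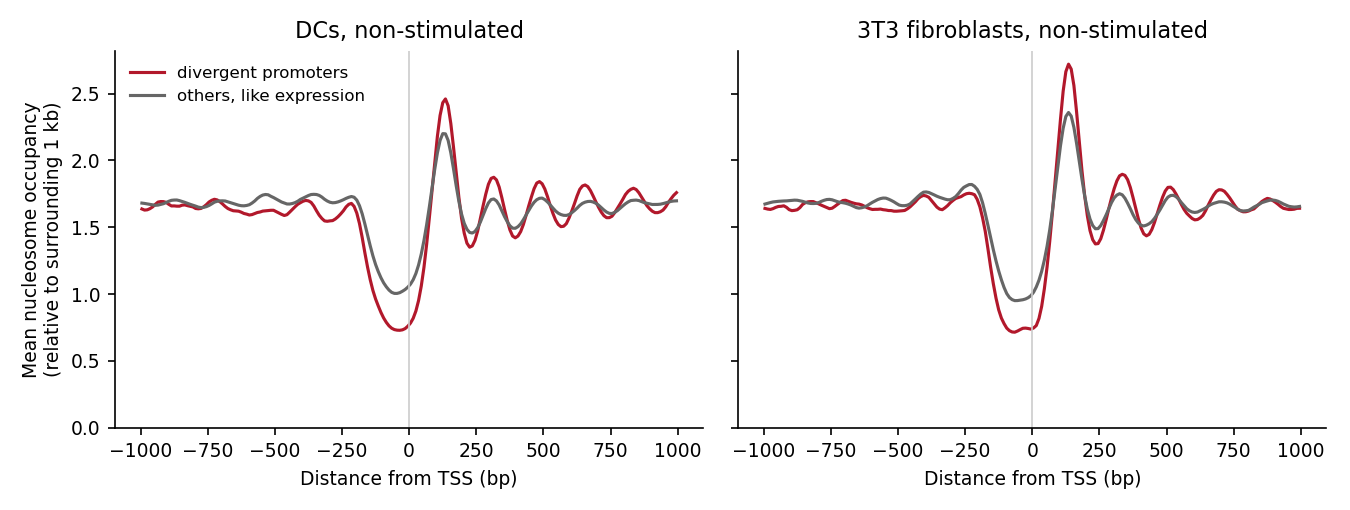
Mean nucleosome occupancy (relative to the surrounding 1 kb) against distance from the TSS in bp for the 2128 divergent promoters (red) and for other promoters weighted to the same expression (grey), in non-stimulated DCs and fibroblasts (pooled sets). The red line runs lower upstream of the TSS, with an NDR ratio of 0.495 against 0.662 in DCs, and swings more widely downstream of it.

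Occupancy at the +1 nucleosome was higher as well. The signal is relative to the surrounding 1 kb, so values at the +1 nucleosome are not independent of the NDR. This was not corrected for. The +1 nucleosome peaked 125 to 135 bp downstream of divergent TSSs in the 8 single libraries. Mean occupancy between 90 and 180 bp was 1.34 times the downstream flank at the median library (range 1.26 to 1.53), against 1.19 (1.12 to 1.27) at other promoters of like expression. Whole profiles were summarised as a patterning level, which sums the occupancy of a promoter against the mean profile of active promoters of that cell-type and is higher where nucleosomes follow that profile. It was 3.37 to 5.72 (median 4.41) at divergent promoters and 2.42 to 3.48 (median 3.01) at others. The difference was 1.43 ± 0.44 (SD, n = 8) and positive in 8 of 8 libraries (exact sign-flip permutation p = 0.00781, adjusted p = 0.0176). With CpG islands also matched it was 0.90. Patterning levels scale with occupancy, whose mean at divergent promoters was 0.785 to 0.812 in the single libraries and 1.57 to 1.604 in the pooled sets. In the pooled sets the levels were 9.92 against 6.82 in non-stimulated DCs and 10.95 against 7.76 in non-stimulated fibroblasts.

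The depletion depended on how far apart the TSSs were. In the 8 single libraries the NDR ratio had a median of 0.575 (0.410 to 0.681) in pairs at most 100 bp apart, 0.522 (0.374 to 0.637) up to 200 bp, 0.621 (0.509 to 0.756) up to 300 bp, 0.724 (0.595 to 0.807) up to 500 bp and 0.663 (0.525 to 0.778) over 500 bp. Other promoters weighted to the expression of each class had medians of 0.696 to 0.721. Relative to these, pairs 100 to 200 bp apart differed most, by -0.50 ± 0.24 on the log2 scale (SD, n = 8). The difference was -0.32 ± 0.16 in pairs at most 100 bp apart and -0.17 ± 0.14 at 200 to 300 bp. It was 0.02 ± 0.09 at 300 to 500 bp and -0.15 ± 0.13 over 500 bp. Neighbouring classes overlapped in their ranges. For a single test, pairs at most 200 bp apart were compared with pairs over 500 bp apart, and the NDR ratio was lower in close pairs, with a difference of -0.30 ± 0.16 on the log2 scale, in 8 of 8 libraries (exact sign-flip permutation p = 0.00781, adjusted p = 0.0176). A comparison relative to others of the same expression and CpG island class was added after the data were seen. It gave a difference of -0.14 (exact permutation p = 0.0312, unadjusted). In CpG island promoters alone, 1063 close and 188 far, the difference was -0.17 (exact permutation p = 0.0391, unadjusted), also added later. Both were positive in replicate 2 of stimulated control cells, at 0.07 and 0.10.

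The midpoint between close TSSs was depleted, whereas that between distant TSSs was not. The midpoint ratio, which is mean occupancy within 50 bp of the midpoint between the TSSs divided by both downstream flanks, had medians of 0.511 (0.291 to 0.641), 0.516 (0.383 to 0.651), 0.620 (0.530 to 0.826), 1.11 (0.925 to 1.17) and 1.06 (1.02 to 1.19) in the 5 distance classes from closest to widest. No library of the first pair of classes reached the lowest value of the last pair. It was lower in pairs at most 200 bp apart than in pairs over 500 bp apart, with a difference of -1.14 ± 0.32 on the log2 scale, in 8 of 8 libraries (exact sign-flip permutation p = 0.00781, adjusted p = 0.0176). The midpoint of a close pair lies nearer to a TSS, so values at the same position of other promoters are set beside it. At the same offset upstream of other promoters of like expression the ratio had medians of 0.667, 0.692, 0.795, 0.988 and 1.05. Pairs were below these others in 8 of 8 libraries in the first and second class, in 7 of 8 in the third, in 2 of 8 at 300 to 500 bp and in 3 of 8 over 500 bp. Relative to this offset, close and far pairs still differed by -0.50 (exact permutation p = 0.00781), a comparison that was also added later. With medians over promoters in place of means, the close-to-far differences were -0.56 for the NDR and -1.94 for the midpoint.

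In non-stimulated DCs the occupancy around the midpoint stayed under 0.75 of the flanks over 210 bp in pairs at most 100 bp apart, 270 bp at 100 to 200 bp and 350 bp at 200 to 300 bp. In pooled non-stimulated fibroblasts the widths were 230, 250 and 320 bp. In the 8 single libraries they were 200 to 220, 210 to 260 and 100 to 350 bp. In pairs 200 to 300 bp apart the stretch did not reach the midpoint in either replicate of non-stimulated BAF-knockdown cells, where the midpoint ratio was 0.826 and 0.779, or in replicate 1 of stimulated control cells, where it was 0.775. In DCs at 300 to 500 bp the midpoint itself had 0.895 of the flank occupancy. The depleted stretch with the lowest occupancy ran from 30 to 220 bp towards the plus-strand gene. Only this stretch was measured, so a further one on the minus side would not be listed. In replicate 1 of non-stimulated control cells it lay on the minus side, from -170 to -80 bp. In the other single libraries it lay on the plus side. Over 500 bp the midpoint ratio was 1.03 in DCs and 1.03 in pooled fibroblasts, and the lowest occupancy on the minus and plus side of it was 0.585 and 0.694 of the flanks in DCs and 0.632 and 0.640 in pooled fibroblasts. Replicate 1 of non-stimulated control and of non-stimulated BAF-knockdown cells had no occupancy under 0.75 of the flanks within 300 bp of the midpoint. That search does not reach the TSSs of the widest of these pairs. The NDR ratio at the TSSs of this class was 0.778 and 0.714 in these libraries. Both strands of close pairs were flanked by +1 nucleosomes, whose peak lay 135 to 145 bp downstream of the TSS in pairs at most 100 bp apart and 115 to 135 bp in pairs 300 to 500 bp apart. It reached 1.53 times the flank (1.44 to 1.91) in the former and 1.45 times (1.37 to 1.61) in the latter.

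**Figure D3:**
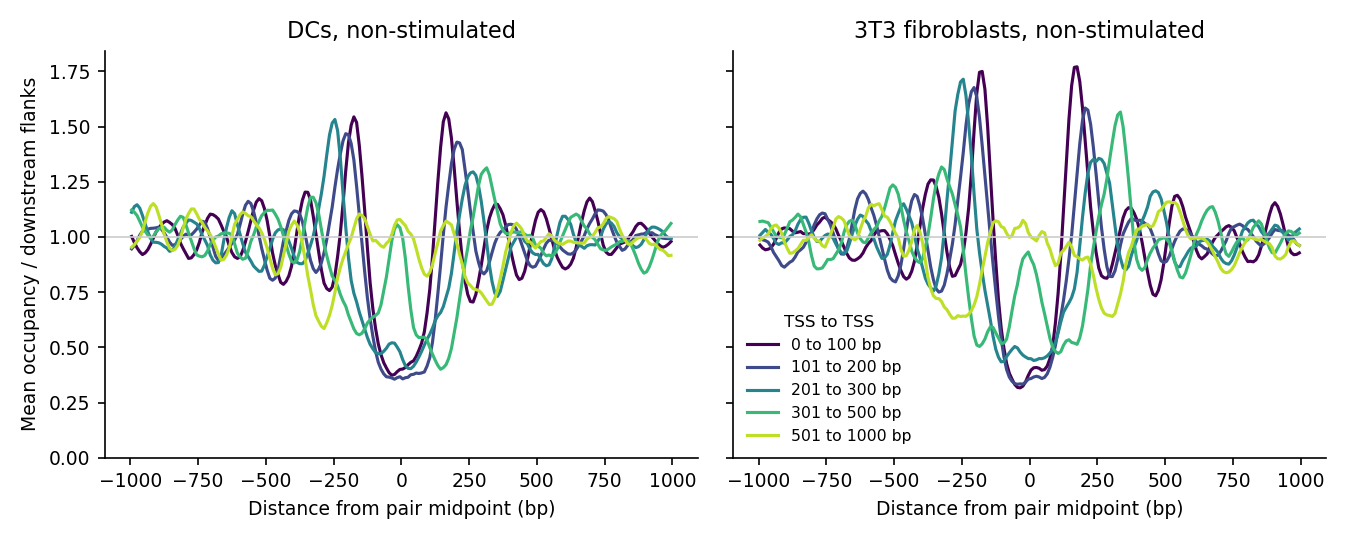
Mean occupancy divided by that of both downstream flanks, against distance in bp from the midpoint between both TSSs, for the 5 distance classes of divergent pairs in non-stimulated DCs and fibroblasts (pooled sets). Lines for pairs up to 300 bp apart form a single trough between 2 +1 nucleosome peaks, the line for 300 to 500 bp has a peak at the midpoint (0.895 of the flanks in DCs), and that for over 500 bp has separate troughs on each side.

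**Figure D4:**
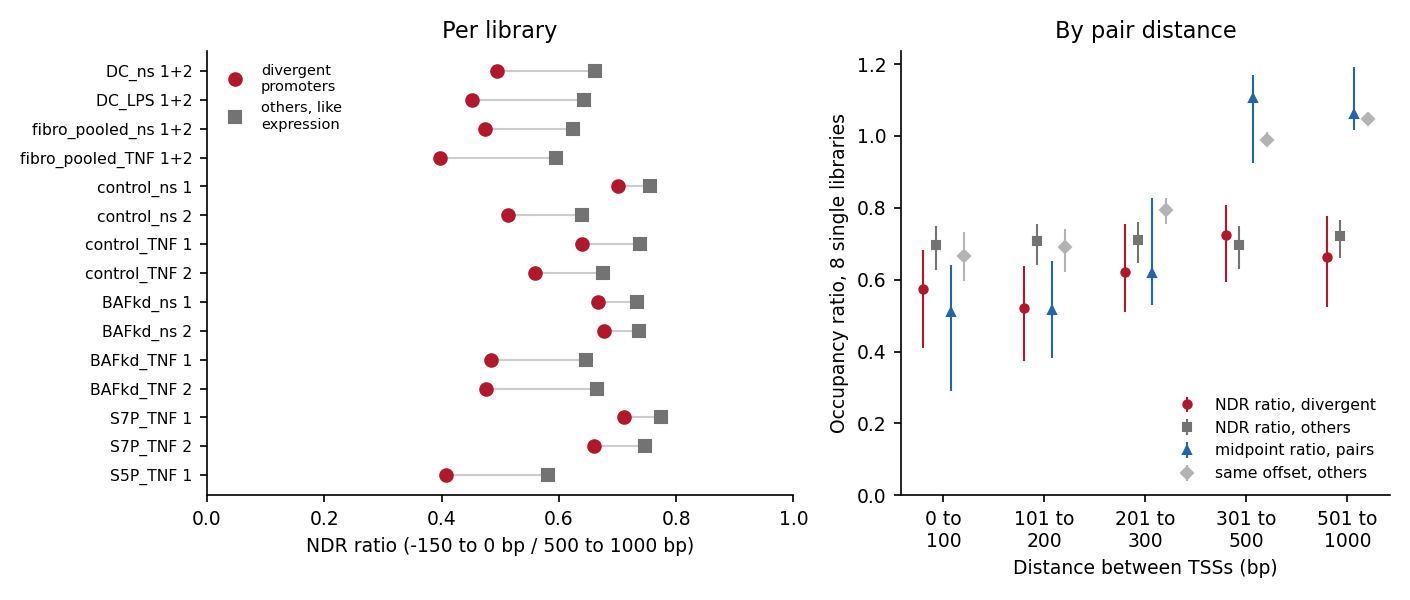
Left, NDR ratio of divergent promoters (red) and of other promoters of like expression (grey) in each of 15 libraries, named by group and replicate (1+2 marks a pooled set, ns non-stimulated). Right, medians over the 8 single H3K4me1 libraries, with bars from the lowest to the highest library, of the NDR ratio and the midpoint ratio by distance between TSSs and of others at the same position. Red lies left of grey in 15 of 15 libraries, and the midpoint ratio is 0.511 in the closest pairs and 1.06 in the widest.

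Next, silent promoters with an active partner were compared with silent high-coverage promoters outside the divergent pairs. Those others can include promoters whose partner the coverage or distance rule left out. In close pairs the window upstream of the silent promoter is DNA shared with its active partner, and can hold the partner's NDR. A lower ratio is therefore not evidence of an NDR that belongs to the silent promoter, and these values were not split by distance. In DCs, 123 divergent promoters had an expression of 0 beside an active partner. Their NDR ratio was 0.574 without stimulation and 0.561 after LPS, against 0.941 and 0.932 at the 2992 other silent promoters. At the 85 divergent promoters where both partners were at 0 it was 0.934 and 0.868. Active divergent promoters had 0.447 beside an active partner and 0.464 beside a silent one. CpG islands made up 78.0% of silent promoters with an active partner, 47.1% of those with a silent partner and 20.7% of other silent promoters. Among CpG islands alone, the 96 silent promoters with an active partner were still lower than the 620 others, by -0.74 on the log2 scale in non-stimulated DCs and -0.70 after LPS. The DC sets have no replicates, so these values have no test.

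In fibroblasts only 33 silent divergent promoters had an active partner, whose NDR their upstream window can likewise hold. Over the 8 single libraries their NDR ratio was 0.634 at the lowest, 0.749 at the median and 0.971 at the highest, against 0.936, 0.951 and 0.986 at the 2205 other silent promoters. The difference was -0.35 ± 0.20 on the log2 scale (SD, n = 8), negative in every library but replicate 2 of stimulated control cells (7 of 8, exact sign-flip permutation p = 0.0156, adjusted p = 0.0281). It no longer passed in CpG island promoters alone, where 21 remained (-0.19, exact permutation p = 0.141), or with a coverage score above 200 (-0.20, exact permutation p = 0.0703). The 26 fibroblast promoters of pairs with both partners at 0 had a median of 0.703 (0.528 to 1.31), below the 0.749 of silent promoters with an active partner. Silent promoters with a silent and with an active partner were at 0.628 and 0.707 in pooled non-stimulated fibroblasts. The order was reversed in pooled TNF-α-stimulated fibroblasts, at 0.915 and 0.838. It also went both ways in the single libraries, as in non-stimulated control replicate 2 (0.528 and 0.648) and stimulated BAF-knockdown replicate 2 (1.31 and 0.686). The difference between these sets was not tested.

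Within a pair, the more strongly expressed gene had the stronger +1 nucleosome and the lower NDR ratio in most libraries. Among pairs with both partners expressed, occupancy between 90 and 180 bp was 1.38 times the flank at the higher-expressed and 1.29 times at the lower-expressed promoter in non-stimulated DCs, and 1.56 and 1.43 times in non-stimulated fibroblasts. In the single libraries the higher-expressed promoter had the larger value in 6 of 8. Where expression differed over 10-fold, it had the larger value in 8 of 8, with 1.40 against 1.23 in non-stimulated DCs (308 pairs) and 1.603 against 1.37 in non-stimulated fibroblasts (417 pairs). NDR ratios in these pairs were 0.473 against 0.523 in DCs and 0.433 against 0.473 in fibroblasts. In the single libraries the higher-expressed promoter had the lower NDR ratio in 7 of 8 over all expressed pairs and in 6 of 8 over those more than 10-fold apart. No test was run on these values.

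Few pairs had both promoters active in 1 cell-type and neither in the other. Both promoters were active in DCs and neither in fibroblasts in 34 pairs. Their NDR ratio was 0.665 in non-stimulated DCs and 0.643 in pooled non-stimulated fibroblasts, where they were inactive, but 0.648 to 1.12 with a median of 0.869 over the 8 single fibroblast libraries. In these single libraries pairs active in both cell-types had a median of 0.568 (0.431 to 0.684) and pairs inactive in both 0.806 (0.699 to 0.875). The reverse held for 7 pairs, with 0.542 in DCs, 0.482 in pooled fibroblasts and a median of 0.607 (0.332 to 0.885) in the single libraries. The 480 pairs that were active in both cell-types had 0.433 and 0.404, and the 63 pairs inactive in both had 0.863 and 0.798. CpG islands made up 91.5% of promoters in pairs active in both cell-types, 71.9% in those active in DCs, 7 of 14 in those active in fibroblasts and 52.9% in those inactive in both. Only 5 pairs were active in DCs with both partners at 0 in fibroblasts, and 2 the other way round. The 5 were all histone pairs: H2bc13/H2ac13 and the pairs of H2bc23 with H2ac23 and H2ac24, annotated second copies included. They belong to the 34 pairs above, and the H2bc23 pairs had no signal in the flanks in the single libraries. Whether RNA selection accounts for the 0 values of these 5 pairs in fibroblasts was not tested. Other histone pairs also belong to the 34: H2ac11/H2bc11, H2ac12/H2bc12, H2ac15/H2bc15, H2ac22/H2bc22, H2bc7/H2ac7 and H2bc9/H3c7, at most 0.656 FPKM in fibroblasts. The 12 H2A/H2B pairs, most of them in this set, had NDR ratios of 0.471 in pooled non-stimulated fibroblasts and 0.622 to 1.51 in the single libraries. The 34 pairs were not measured without histone pairs.

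Among well-known head-to-head pairs, 6 were found by the rule. Hspd1/Hspe1 and Mcm4/Prkdc had a coverage score of at most 100. Surf1/Surf2 and Ppat/Paics start from overlapping positions, with the minus-strand TSS 108 and 166 bp above the plus-strand TSS, and Wrap53/Trp53 start 1036 bp apart. Psmb9/Tap1 encode a proteasome subunit and a peptide transporter of antigen presentation and start 227 bp apart, at positions 34324275 and 34324502 of chromosome 17. Their expression was even, at 3.36 and 3.23 FPKM in DCs and 2.80 and 2.78 FPKM in fibroblasts. Col4a1/Col4a2, which encode chains of type IV collagen, were expressed at 23.5 and 26.2 FPKM in fibroblasts and at 0.00467 and 0.0819 FPKM in DCs. Mcm7/Ap4m1, a replicative helicase subunit and an adaptor for vesicle transport, had 5.89 and 7.51 FPKM in fibroblasts and 1.32 and 0.527 FPKM in DCs. Mrps12/Sars2, a mitochondrial ribosomal protein and a mitochondrial seryl-tRNA synthetase, had 8.16 and 3.29 FPKM in fibroblasts. Atm/Npat, a kinase of the DNA damage response and a regulator of histone genes, had 7.33 and 12.4 FPKM. Brca1 was paired with a near (153 bp) and a far (700 bp) start of Nbr1, with 5.42 FPKM for Brca1 and 0.818 and 19.4 FPKM for the Nbr1 starts in fibroblasts.

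Occupancy at a single pair varied widely between libraries and was often listed at 0. The midpoint ratio of Psmb9/Tap1 was 0.384 in non-stimulated and 0 in LPS-stimulated DCs, 0.137 and 0.893 in pooled fibroblasts without and with TNF-α, and from 0 to 0.915 (median 0.290) over the 8 single libraries. That of Mcm7/Ap4m1 was 0, 0.736, 0.162 and 0 in the same 4 pooled sets and 0 to 0.833 (median 0.260) in the single libraries. Mrps12/Sars2 had 0 in both DC sets, 0.579 and 0 in pooled fibroblasts and 0 to 1.72 (median 0.382) in the single libraries. For Sdhd/Timm8b it was 0.132, 0.327, 0 and 0.0443, and 0 to 0.890 with a median of 0. Hdlbp/Septin2 was listed at 0 in 8 of 8 single libraries but at 1.67 in pooled TNF-α-stimulated fibroblasts. Ddx25/Pus3, at 997 bp, had 0.940 and 1.79 in DCs and 1.07 to 3.79 (median 2.11) in the single libraries. With such a spread, only means over many pairs are compared here. The 12 H2A/H2B pairs together had a midpoint ratio of 0.443 in non-stimulated DCs, 0.298 after LPS, 0.387 and 0.422 in pooled fibroblasts without and with TNF-α, and 0.371 to 2.46 in the 8 single libraries, where the 4 pairs of H2bc23 had no signal in the flanks. The histone genes are near-identical copies, and fragments that matched more than 1 promoter region had been removed.

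TNF-α and BAF knock-down were compared over the 8 single libraries. The NDR ratio of divergent promoters was 0.7003 and 0.513 in the non-stimulated control replicates and 0.639 and 0.560 in the TNF-α-stimulated ones. It was 0.667 and 0.677 in non-stimulated and 0.484 and 0.475 in stimulated BAF-knockdown replicates. Stimulated libraries were lower in both knock-down replicates, whereas the control groups overlap. TNF-α libraries differed from non-stimulated ones by -0.25 on the log2 scale (exact permutation of 4 against 4 libraries, p = 0.143, adjusted p = 0.214), or by -0.60 with medians over promoters (exact permutation p = 0.229), and knock-down from control by -0.08 (p = 0.6 by the same exact test). The patterning level differed by 0.92 with TNF-α (exact permutation p = 0.2) and by 0.21 with knock-down (exact permutation p = 0.657). In these exact permutation tests 4 against 4 libraries can reach p = 0.0286.

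Single promoters were fitted with limma across all 13559 high-coverage promoters, with stimulation and knock-down as terms. At a Benjamini-Hochberg adjusted p under 0.05, limma called 0 of the 2128 divergent promoters in each of the 4 fits, against a background of 0% of all promoters tested. At an unadjusted p under 0.05, limma listed 116 divergent promoters for TNF-α and the NDR difference, which is 5.45% against 5.65% of all, and 113 for knock-down (5.31% against 5.86%). For the patterning level the counts were 124 with TNF-α (5.83% against 5.68%) and 119 with knock-down (5.59% against 5.84%). These shares were near the background. The median TNF-α effect on the NDR difference (upstream minus flank occupancy) was -0.09 at divergent promoters and -0.02 at all, and it was negative at 59.2% and 52.8%.

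In the pol-II libraries of TNF-α-stimulated fibroblasts, the midpoint of close divergent pairs was depleted as well. The midpoint ratio of pairs 100 to 200 bp apart was 0.608 and 0.541 in the S7P replicates and 0.207 in the S5P library, against 0.761, 0.735 and 0.560 at the same offset of other promoters. In S5P the +1 peak reached 2.34 times the flank at divergent promoters, compared with 1.54 and 1.61 times in S7P. Pairs 300 to 500 bp apart had midpoint ratios of 1.05 and 1.11 in S7P and 1.30 in S5P. The study's methods give replicates for S5P, and the labels do not say whether the single S5P set pools them. H3K4me1 libraries were read from single ends and pol-II libraries from both ends, so the antibody and the kind of sequencing cannot be told apart.

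Coverage differed between divergent and other promoters. Bins with any fragment made up 58.6 to 76.4% of bins at divergent promoters and 64.5 to 78.4% at others in the 8 single libraries, and 73.3 to 85.9% against 83.6 to 91.0% in the pooled sets. In the pol-II libraries they made up 79.7 to 89.2% against 67.2 to 79.7%. With a coverage score above 200 the NDR difference between divergent and other promoters of like expression was -0.30 on the log2 scale. Between 6 and 10 divergent promoters had no signal at all in each single H3K4me1 library. The files hold no read counts, so the depth behind a value is unknown. Shared positions of both partners had the same occupancy (r = 0.992 to 0.995 across bins), as they are the same DNA read from both rows.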

How the data were processed

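The authors deposited ChIP-MNase occupancy as a signal in 10 bp bins from -1000 to 1000 bp of each TSS, relative to the fragments in the surrounding region. Reads had been mapped to mm9, with Bowtie2 and bedtools named in the submitters' processing notes. Single-end reads were used for H3K4me1 and paired-end reads for pol-II. Duplicate reads in excess of the local read density had been removed, and the 4 pooled sets each sum 2 replicates. Expression was joined to the promoters by the authors as FPKM of non-stimulated cells from public RNA-seq. Columns holding the authors' expression differences after stimulation were not used.

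Ratios were taken between mean profiles. Differences over the 8 single H3K4me1 libraries were tested by exact two-sided sign-flip permutation, and TNF-α and knock-down by exact permutation of 4 against 4 libraries. P-values were Benjamini-Hochberg adjusted over these 9 tests. Single promoters were fitted with limma 3.58.1 (R 4.3.3), with stimulation and knock-down as additive terms. Other steps used Python 3.11.15, numpy 2.4.6, pandas 2.3.3 and matplotlib 3.10.9. Scripts were tested on simulated data. A CpG island promoter had over 50% G and C and more than 0.6 of the CpGs its base composition predicts.

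Pairs named in the text are well-known head-to-head and H2A/H2B pairs, the 5 pairs per cell-type with the highest expression of the lower-expressed gene, the 5 with 1 gene at 0 and the highest expression of the other, and the 3 shortest and 3 longest. Some of the well-known pairs looked up are not reported here. The members and lists were chosen with earlier results of these data known. Same-numbered replicates did not deviate together (correlations from -0.0100 to 0.0130).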

Additional observations from a re-analysis of the deposited data

How the results depend on the processing

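Of 195 alternative values, 187 kept their direction and side of the threshold, as did 79 of the 81 for the 5 differences that passed. The silent promoters with an active partner no longer passed with a coverage score above 200 (-0.20, p = 0.0703 by exact permutation) or, added after the data were seen, in CpG islands alone (-0.19, exact permutation p = 0.141). The knock-down difference in patterning level was -0.0201 with a coverage score above 200, and the cause was not tested. Leaving out each library gave -0.16 to 0.01 (highest 0.00885) for the knock-down NDR ratio, which turned positive without either replicate of stimulated BAF-knockdown cells (0.000249 without replicate 1), and -0.19 to 0.55 for the knock-down patterning level, which turned negative without non-stimulated control replicate 1 (-0.09) or stimulated BAF-knockdown replicate 2 (-0.19). Medians over promoters in place of means gave -0.66 for divergent against other promoters, -0.56 and -1.94 for close against far pairs, -0.52 for silent promoters and -0.60 for TNF-α. With a stimulation-by-knock-down interaction in limma, 1 promoter outside the divergent pairs was called for knock-down and the NDR. Leaving out each library gave -0.28 to -0.23 for divergent against other promoters, -0.33 to -0.26 and -1.20 to -1.08 for close against far pairs at the NDR and midpoint, and -0.41 to -0.32 for silent promoters. With the replicate number as a block, the values were -0.25 and 0.92 for TNF-α and -0.08 and 0.21 for knock-down (exact permutation p = 0.25, 0.25, 0.625 and 0.75), and limma called 0 promoters, so the block changed no call. The numbers pair no samples. The midpoint could not be set against an upstream flank, because that flank is the partner's gene. Depth per promoter is unknown and limits single pairs.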
